A study of Homo sapiens with 6 samples.

Results

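The genes described here form the switch with which a cell leaves G1, the phase before DNA synthesis. They are the D-type cyclins CCND1, CCND2 and CCND3, their kinases CDK4 and CDK6, the CDK inhibitors CDKN1B and CDKN2C, and the pocket proteins RB1, RBL1 and RBL2. They were chosen by symbol, and all 10 were found among the 16907 gene symbols of the count files. RNA was sequenced from LX-2, an established human line of hepatic stellate origin; in injured liver, stellate cells turn into collagen-producing myofibroblasts. Small interfering RNA was present at 20 nM for 72 h, as a control sequence (siControl) or as one against OGT (siOGT), the enzyme that adds O-linked N-acetylglucosamine to proteins. Each group comprised 3 libraries, and libraries with the same replicate number formed a pair from 1 of 3 independent experiments. All libraries came from the same line, which was immortalised with the SV40 large T antigen, and in both groups the cells had received a siRNA.

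As background, D-type cyclins accumulate when a cell receives growth signals and activate CDK4 or CDK6. The active kinases phosphorylate RB1, RBL1 (p107) and RBL2 (p130), which then release E2F transcription factors, and E2F factors switch on the genes of DNA synthesis. CDKN2C (p18INK4C) binds CDK4 and CDK6 and keeps them inactive, and CDKN1B (p27KIP1) mainly blocks CDK2 bound to cyclin E. RBL2 and RBL1 can also join the MuvB proteins in the DREAM complex, which silences cell cycle genes in resting cells. The SV40 large T antigen binds the pocket proteins, so the brake they form is compromised in lines that carry it, and proliferation of stellate cells is part of their activation in injured liver.

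CCND3 RNA was 2.33-fold higher in siOGT, CDK6 RNA was 1.39-fold higher and CDKN2C RNA fell to 0.64 of its siControl level. The 7 other genes did not pass the test. Genes were called at an adjusted p of 0.05 or less in edgeR's quasi-likelihood test, in which the replicate pairs entered as a block. Thus 3 of the 10 genes (30.0%) were called, against 25.4% of the 14853 genes tested, so the share of called members was close to that of the transcriptome. In each direction, 2 members were called higher and 1 lower, while 12.7% of all genes were called higher and 12.7% lower. The median log2 fold change was 0.036 over the members and 0.0068 over all genes. Levels are given as CPM, counts expressed per library of a common size, with SD over 3 libraries.

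**Figure D1:**
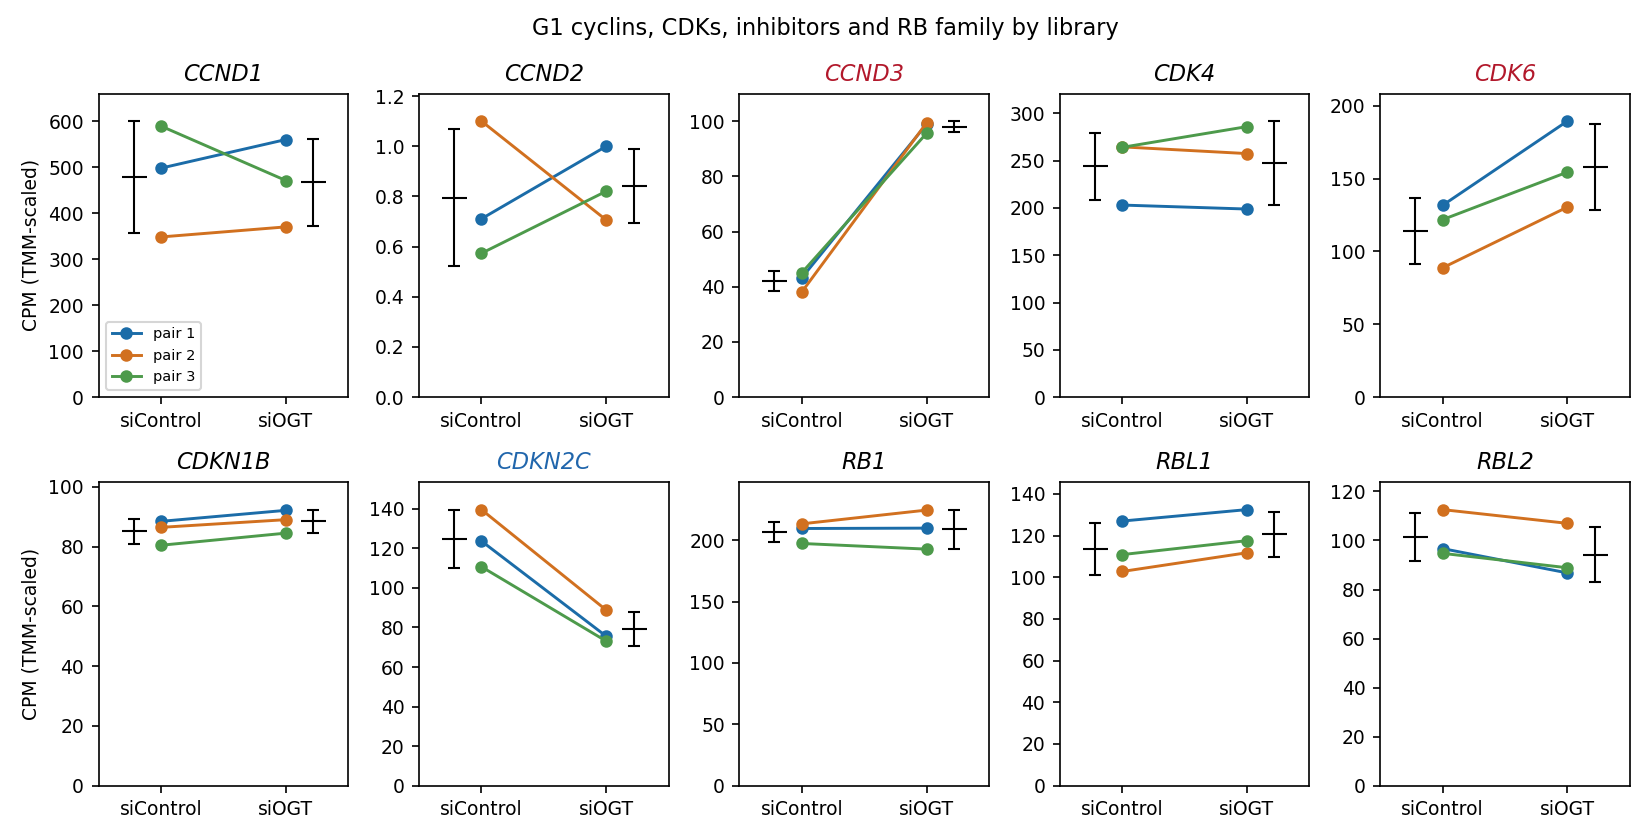
CPM of each of the 10 genes in siControl (left) and siOGT (right), with lines joining the libraries of a pair and black marks at the mean ± SD of 3 libraries; each panel has its own axis starting at 0, with titles in red for genes called higher and in blue for genes called lower. CCND3 rose from between 38.1 and 45.1 CPM to between 95.7 and 99.4 CPM, and the CDKN2C lines fell in all 3 pairs.

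Before the members, the labels and the identity of the cells were checked. OGT was at 121 to 177 CPM in siControl and 26.97 to 39.95 CPM in siOGT (edgeR log2 fold change -2.18 with an adjusted p of 2.71e-12). Library totals lay between 25996770 and 27966801 expected counts. Of 9 stellate or mesenchymal markers, 7 were at 1 CPM or more in every library, whereas LUM was at 0.154 CPM or less and DCN was not analysed here. Of 4 hepatocyte markers, ALB was at 0.113 CPM or less, APOA1 at 0.224 CPM or less and SERPINA1 at 3.18 to 4.35 CPM. TTR was not analysed here, and the other 3 summed to between 3.30 and 4.39 CPM. Of the biliary markers, EPCAM and KRT19 were at 0.143 CPM or less and KRT7 was at 4.75 to 7.94 CPM. The 4 endothelial markers summed to between 3.29 and 7.69 CPM in siControl and to between 3.06 and 5.80 CPM in siOGT, 0 of them reached 1 CPM in every library, and VWF was called lower (log2 fold change -0.93, edgeR adjusted p = 0.0108). Among 4 macrophage and blood cell markers, CD68 rose (log2 fold change 0.46, adjusted p = 0.000947), with 123 to 151 CPM in siControl and 166 to 205 CPM in siOGT. The list summed to between 131 and 159 CPM in siControl and to between 174 and 212 CPM in siOGT. In the same list, CD14 was at 4.55 to 7.62 CPM, PTPRC, which marks white blood cells, stayed under 1 CPM, and CD163 was at 0.076 CPM or less. Stellate markers summed to between 6450 and 7656 CPM in siControl and to between 5944 and 6787 CPM in siOGT. The part of these shifts in the results below was not tested. In bulk RNA, a change in the share of cells in a phase of the cycle and a change in RNA per cell cannot be told apart.

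The sequences in front of the transcription start are shown for the members with the largest rise and fall, CCND3 and CDKN2C, and for RBL1, a pocket protein gene with E2F words near its start. They are the 250 bases before a start site in the RefSeq table of GRCh38.p14, on the strand of the gene. The last base is the one next to the start. CCND3 and CDKN2C have 3 start sites each in that table, and the one at the start of the main transcript is shown. Capitals mark matches on either strand to 3 motifs: E2F (TTTCCCGC, TTTCGCGC, TTTGCCGC or TTTGGCGC), TEAD (GGAATG) and the E-box CACGTG. The TEAD and E-box words were added after the sequences had been seen.
CCND3, chr6:41941809-41942058, minus strand: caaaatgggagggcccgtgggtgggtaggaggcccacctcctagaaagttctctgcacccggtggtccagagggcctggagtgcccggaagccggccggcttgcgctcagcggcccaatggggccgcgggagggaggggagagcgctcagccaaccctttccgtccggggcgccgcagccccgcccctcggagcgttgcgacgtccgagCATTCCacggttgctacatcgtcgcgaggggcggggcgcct
CDKN2C, chr1:50969995-50970244, plus strand: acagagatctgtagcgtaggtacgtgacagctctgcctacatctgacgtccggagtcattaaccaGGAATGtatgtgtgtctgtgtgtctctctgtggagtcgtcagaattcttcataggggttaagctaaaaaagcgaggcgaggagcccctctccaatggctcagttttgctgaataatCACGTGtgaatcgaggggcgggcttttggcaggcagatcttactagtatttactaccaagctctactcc
RBL1, chr20:37095998-37096247, minus strand: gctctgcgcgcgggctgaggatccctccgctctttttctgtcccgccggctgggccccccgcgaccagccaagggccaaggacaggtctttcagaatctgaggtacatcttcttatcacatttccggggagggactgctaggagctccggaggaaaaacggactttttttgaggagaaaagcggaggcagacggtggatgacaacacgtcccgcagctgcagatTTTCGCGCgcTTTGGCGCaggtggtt

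In the CCND3 sequence, a TEAD word lay on the opposite strand 41 to 36 bases before the start. The CDKN2C sequence held a TEAD word 185 to 180 bases and an E-box 69 to 64 bases before the start. In RBL1, E2F words lay 26 to 19 and 16 to 9 bases before the start. At the start sites not shown, CCND3 had 0 of these words. CDKN2C had an E-box at 1 of them and a TEAD word at another. RefSeq entries were found for 8 of the 10 members (14 start sites), and E2F words stood in 1 of these 8, TEAD words in 2 and E-boxes in 2, counting any start site of a gene. The 1 entry of RB1 starts 172699 bases from the start of its main transcript, so the sequence at that start was not searched. A further motif, the CHR (TTTGAA or TTCGAA) through which DREAM binds, was found in 0 of the 8. Counted in the same way over the 27305 genes of the table, 3.4% held an E2F word, 14.3% a TEAD word, 7.73% an E-box and 17.2% a CHR. These are matches of letters, and binding was not measured here.

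CCND3, the D-type cyclin known for its role in blood cells and in differentiating muscle, was the member with the largest change. The gene lies on chromosome 6 (41934934 to 42050357, minus strand, hg38). Its level was 43.3, 38.1 and 45.1 CPM in siControl 1 to 3 and 99.0, 99.4 and 95.7 CPM in siOGT 1 to 3. All siOGT libraries were above all siControl libraries, and the siOGT values were within 4 CPM of each other. On the log2 scale the change was 1.22 with an SE of 0.072 (95% confidence interval 1.07 to 1.37, edgeR adjusted p = 6.85e-09), and the log2 ratios in the pairs were 1.19, 1.38 and 1.08. By size, this change ranked 59 of the 1885 genes called higher. Over 11 alternative settings the log2 fold change stayed between 1.14 and 1.28, with an adjusted p of at most 0.00233.

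The genes next to CCND3 were looked at after its values had been seen. Within 250 kb on either side, 12 protein-coding genes were tested and 0 of them were called higher by edgeR or by DESeq2 with the block, while 3 were higher at an unadjusted edgeR p under 0.05. The nearest, TAF8, which codes for a subunit of the general transcription factor TFIID, had a log2 fold change of -0.003. BYSL, a ribosome biogenesis gene 1.9 kb away, was at 0.21 (adjusted p = 0.0564). PRICKLE4, at 147.5 kb, was the 1 neighbour called lower, with -0.63 (adjusted p = 0.0168). Around CDK6, 2 of 6 neighbours were called higher, namely RBM48 (0.59, adjusted p = 0.000425) and FAM133B (0.38, adjusted p = 0.00183). For comparison, 12.7% of all genes were called higher and 12.7% lower, and counts this small cannot be told apart from those shares. FAF1, the 1 neighbour of CDKN2C tested, had a log2 fold change of 0.12 (adjusted p = 0.175).

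CCND1, the D-type cyclin most often amplified in cancer, was not called. The gene lies on chromosome 11 (69641156 to 69654474, plus strand). Its level was 498.2, 348.5 and 589.6 CPM in siControl and 560.4, 370.4 and 471.3 CPM in siOGT. The groups overlapped, and CCND1 differed more among the libraries of a group than between the groups. Its log2 fold change of -0.02 had an SE of 0.083 (95% confidence interval -0.20 to 0.15, edgeR adjusted p = 0.879). The pairs went in different directions, with log2 ratios of 0.17, 0.09 and -0.32. Without pair 3 the log2 fold change was 0.123, still not called (edgeR adjusted p = 0.176). It was -0.12 without pair 1 (edgeR adjusted p = 0.543) and -0.0789 without pair 2 (edgeR adjusted p = 0.598).

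CCND2, the third D-type cyclin (chromosome 12, 4269771 to 4305353, plus strand), was near the limit of detection, with 16 to 28 counts per siControl library and 19 to 27 per siOGT library. The means were 0.795 ± 0.273 CPM (siControl) and 0.842 ± 0.148 CPM (siOGT). The 95% confidence interval of its log2 fold change, -0.70 to 0.91, includes both a rise and a fall of over 1.5-fold. A difference of that size could therefore not be detected at this depth.

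To compare genes with each other, levels were divided by the mean transcript length and scaled to the same total in every library (TPM). Per length, CCND1 was the most abundant D-type cyclin in every library, with 365 ± 98.5 TPM in siControl and 363 ± 85.3 TPM in siOGT. CCND3 followed with 53.4 ± 5.74 and 126 ± 5.58 TPM, and CCND2 with 0.219 ± 0.0698 and 0.239 ± 0.0501 TPM. CCND3 thus made up 12.6%, 15.4% and 11.3% of D-type cyclin RNA in siControl and 22.7%, 30.9% and 25.3% in siOGT, so that the groups did not overlap. The summed level of the 3 cyclins was 418 ± 104 TPM in siControl and 489 ± 89.3 TPM in siOGT, and there the groups overlapped. Subtracting the CCND1 log2 ratio from the CCND3 log2 ratio gave 1.02, 1.29 and 1.41 in the 3 pairs. An exact sign-flip permutation test of this difference gave p = 0.25, the smallest that 3 pairs allow. The test therefore could not decide whether the genes differed. Each comparison of this kind, here and below, set a called member against a relative that was not called.

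**Figure D2:**
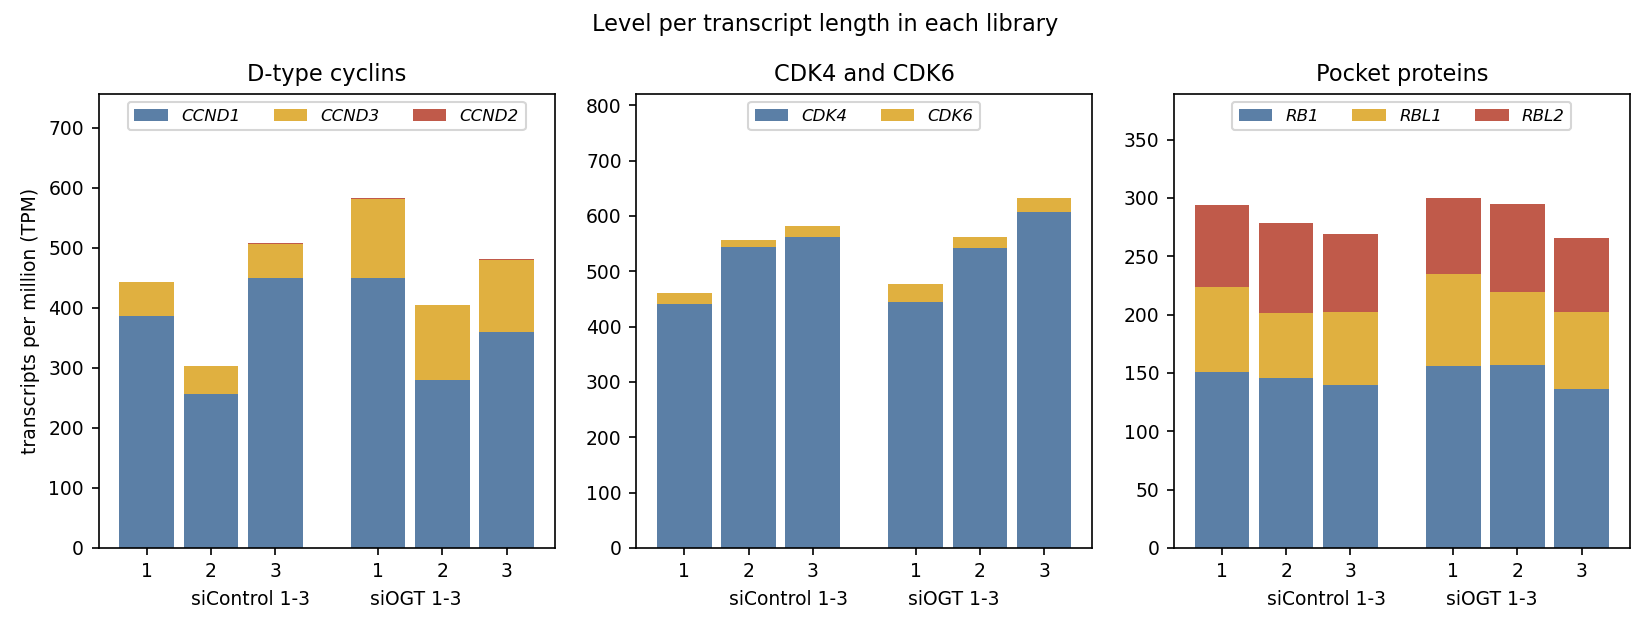
TPM in each library, stacked over the 3 D-type cyclins (left), CDK4 and CDK6 (middle) and the 3 pocket proteins (right), with the 3 siControl libraries to the left of the 3 siOGT libraries in each panel. The CCND3 layer grew from 46.8 to 57.4 TPM in siControl to 122 to 132 TPM in siOGT, while CCND2 (at most 0.296 TPM) is too low to be seen and the pocket protein layers kept nearly the same heights.

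CDK6, a kinase partner of the D-type cyclins, was higher in siOGT in all 3 pairs. The gene lies on chromosome 7 (92604921 to 92836573, minus strand). Its level was 131.6, 88.7 and 121.8 CPM in siControl and 189.4, 130.4 and 154.4 CPM in siOGT. The groups overlapped, since siOGT 2 (130.4 CPM) was just under siControl 1 (131.6 CPM), and in both groups pair 2 had the lowest value. Its log2 fold change of 0.47 had an SE of 0.067 (95% confidence interval 0.33 to 0.61, edgeR adjusted p = 7.46e-05), with log2 ratios of 0.53, 0.56 and 0.34 in the pairs. This call needed the pairing. Without the block the log2 fold change was again 0.47, but the adjusted p was 0.19 with edgeR and 0.0859 with DESeq2. Those fits called 0.875% and 5.72% of all genes, against 16.3% for DESeq2 with the block, which called CDK6, CCND3 and CDKN2C.

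CDK4, the other kinase partner, was at 203.0, 264.5 and 264.0 CPM in siControl and at 198.8, 257.4 and 285.9 CPM in siOGT. Within each pair the values were close, whereas pair 1 was lower than the other two in both groups. Its log2 fold change of 0.02 had an SE of 0.066 (95% confidence interval -0.12 to 0.15, edgeR adjusted p = 0.895). The gene lies on chromosome 12 (57747727 to 57756013, minus strand), where 44.25% of its exonic bases overlap TSPAN31 on the opposite strand. Reads were counted by strand.

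Per length, CDK4 exceeded CDK6 in every library. CDK4 was at 515 ± 65.6 TPM in siControl and 532 ± 81.7 TPM in siOGT, and CDK6 at 17.9 ± 3.95 and 25.2 ± 5.59 TPM. CDK6 made up 3.42 ± 1.08% of CDK4 and CDK6 RNA in siControl and 4.67 ± 1.65% in siOGT. With the longest transcript as the length, these shares were 7.12% and 9.56%, so that the share depends on which transcripts are used. The log2 ratio of CDK6 exceeded that of CDK4 by 0.556, 0.594 and 0.227 in the 3 pairs (exact sign-flip permutation p = 0.25, the smallest possible).

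**Figure D3:**
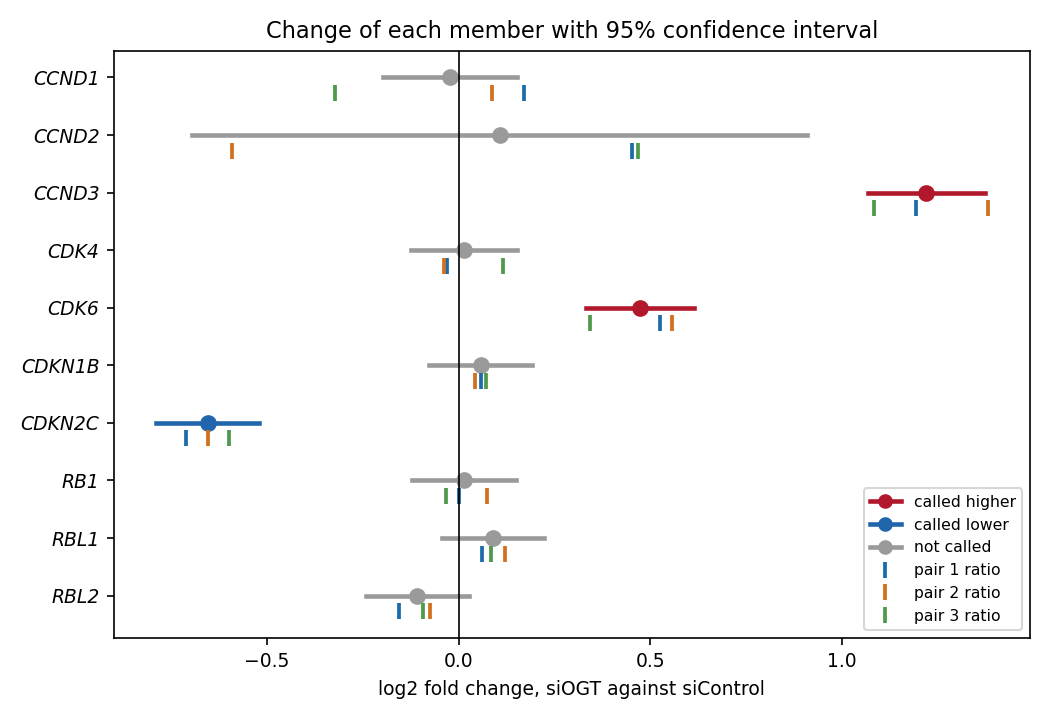
Log2 fold change of siOGT against siControl for each member from edgeR with the replicate block (dots) with 95% confidence intervals (bars), and the log2 ratio within each pair (ticks). The intervals of CCND3 (1.07 to 1.37), CDK6 (0.33 to 0.61) and CDKN2C (-0.79 to -0.52) exclude 0, and the ticks of CCND1 fall on both sides of it.

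CDKN2C, the INK4 inhibitor of CDK4 and CDK6, was the member that fell. The gene lies on chromosome 1 (50960745 to 50974634, plus strand). Its level was 123.7, 139.6 and 110.7 CPM in siControl and 75.6, 88.8 and 73.1 CPM in siOGT. Every siOGT library was below every siControl library, and the order of the pairs was the same in both groups, with pair 2 highest and pair 3 lowest. Its log2 fold change of -0.65 had an SE of 0.064 (95% confidence interval -0.79 to -0.52, edgeR adjusted p = 2.42e-06), so that RNA dropped by 36.5%. The pairs had log2 ratios of -0.71, -0.65 and -0.60. This fall ranked 239 of the 1881 genes called lower. It was called under all 11 alternatives, with log2 fold changes between -0.69 and -0.63 and an adjusted p of at most 0.0452.

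CDKN1B, which inhibits CDK2 with cyclin E and is controlled largely at the protein level, lies on chromosome 12 (12685498 to 12722369, plus strand). It was at 88.4, 86.4 and 80.4 CPM in siControl and at 92.1, 89.0 and 84.5 CPM in siOGT. Its values were slightly higher in siOGT in each pair, by log2 ratios of 0.06, 0.04 and 0.07, but the groups overlapped. The log2 fold change of 0.06 did not pass the test (SE 0.063, edgeR adjusted p = 0.558), and its 95% confidence interval of -0.08 to 0.19 leaves room for a change of up to 1.14-fold. The log2 ratio of CDKN2C was below that of CDKN1B by -0.769, -0.695 and -0.669 in the 3 pairs (exact sign-flip permutation p = 0.25, the smallest possible). Per length, CDKN2C was above CDKN1B in siControl (114 ± 11.2 against 75.3 ± 4.39 TPM), and in siOGT the values were 73.5 ± 6.82 and 79.8 ± 5.75 TPM. The order in siOGT turned with the length used, since with the longest transcript CDKN2C was at 79.03 TPM and CDKN1B at 59.33 TPM.

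None of the 3 pocket protein genes was called. RB1, the retinoblastoma tumour suppressor (chromosome 13, 48303744 to 48599436, plus strand), was at 209.5, 213.3 and 197.3 CPM in siControl and at 209.8, 224.5 and 192.7 CPM in siOGT. The values in a pair were nearly the same, and the log2 fold change was 0.01 (95% confidence interval -0.12 to 0.15, edgeR adjusted p = 0.902). RBL1 (chromosome 20, 36996349 to 37095997, minus strand), which is itself an E2F target gene, was at 127.0, 102.8 and 110.9 CPM in siControl and at 132.5, 111.8 and 117.6 CPM in siOGT. All 3 pairs leaned upward, without passing the test (log2 fold change 0.09, 95% confidence interval -0.04 to 0.22, edgeR adjusted p = 0.336). RBL2 (chromosome 16, 53433977 to 53491648, plus strand), the pocket protein typical of resting cells, was at 96.7, 112.6 and 94.8 CPM in siControl and at 86.8, 107.0 and 88.9 CPM in siOGT. All 3 pairs leaned downward, again without passing the test (log2 fold change -0.11, 95% confidence interval -0.24 to 0.03, edgeR adjusted p = 0.238).

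Per length, RB1 was the most abundant pocket protein RNA, with 145 ± 5.69 TPM in siControl and 149 ± 11.8 TPM in siOGT. RB1 made up 51.7 ± 0.44% of the RNA of the 3 genes in siControl and 52.1 ± 1.02% in siOGT. RBL2 took 25.5 ± 1.99% and 23.6 ± 1.94%, and RBL1 22.8 ± 2.42% and 24.2 ± 2.64%. RBL1 and RBL2 did not differ beyond their spread in either group.

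In 2 of the 10 genes, CCND3 and CDKN2C, the siControl and siOGT values did not overlap (1 higher and 1 lower), while this was so for 23.9% of all genes. When 1 pair was left out, the 3 called members were called in each case. Those fits called 12.5% of all genes without pair 1, 22.5% without pair 2 and 23.8% without pair 3.

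The other cyclins, kinases and inhibitors of the G1/S step moved in both directions. Of 10 such genes outside the members, 2 were called higher, 3 lower and 5 were not called, while 25.4% of all genes were called. CDK2, the kinase that takes over from CDK4 and CDK6, fell from 136 to 97.1 CPM (log2 fold change -0.49, edgeR adjusted p = 3.57e-05). Of its partners, CCNE2 fell by 0.24 on the log2 scale (adjusted p = 0.0423), and CCNE1, at 4.40 and 3.51 CPM, had a log2 fold change of -0.33 that did not pass the test (adjusted p = 0.173). CDKN1A (p21), an inhibitor induced by p53, rose from 51.4 to 77.6 CPM (0.60, adjusted p = 1.17e-05). CDC25A, the phosphatase that activates CDK2, rose by 0.35 (adjusted p = 0.00123). CDKN2D, the INK4 relative of CDKN2C, fell as CDKN2C did, by 0.41 on the log2 scale (adjusted p = 0.00855). Without pair 1, 3 of the 10 genes were called instead of 5. CDKN2A, which codes for the inhibitor p16INK4A and for p14ARF, was named after its values were seen. It stood at 695 ± 97.4 CPM in siControl and 682 ± 69.5 CPM in siOGT, and at 1572 and 1571 TPM, well above CDKN2C per length.

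Of 10 E2F and DP factors, the partners of the pocket proteins, 3 were called higher and 2 lower. E2F1, an activator bound by RB1, fell from 177 to 145 CPM (log2 fold change -0.29, edgeR adjusted p = 0.00255). E2F2, another activator, rose from 19.0 to 29.0 CPM (0.61, adjusted p = 4.5e-05). The repressor E2F7 rose from 146 to 205 CPM (0.50, adjusted p = 6.4e-05), and E2F6, also a repressor, by 0.27 (adjusted p = 0.0457). TFDP2, a DP partner named after its values were seen, fell by 0.27 on the log2 scale (adjusted p = 0.00458). E2F4, the main E2F of RBL1 and RBL2, had a log2 fold change of 0.05 (adjusted p = 0.618). Without pair 1, 3 of the 10 factors were called, against 12.5% of all genes.

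Of 8 genes of the MuvB core and its partners, LIN37 (0.50, edgeR adjusted p = 0.000386) and LIN9 (0.27, adjusted p = 0.0402) were called higher. RBBP4 was called lower (-0.32, adjusted p = 0.00173). These are core subunits that DREAM shares with the activating complexes of B-MYB. In all, 3 of the 8 genes were called (37.5%, against 25.4% of all genes). The count was 1 without pair 1 and 5 without pair 3, so it rests on the libraries used.

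Most of the listed E2F target genes of DNA replication were lower in siOGT, in a list chosen with earlier results of these libraries known. Of 16 genes, 13 were called lower and 1 higher (87.5% called, against 25.4% of all genes). Over all genes, 12.7% were called lower. The median log2 fold change of the 16 genes was -0.36. TYMS (-0.63) and RRM2 (-0.62) make DNA precursors, and MCM5 (-0.61) and MCM6 (-0.51) belong to the replicative helicase (edgeR adjusted p between 4.31e-06 and 3.5e-05). In 13 of the 16 genes all siOGT values were below all siControl values, as in 1748 of all 14853 genes tested. CDT1, which loads the helicase and was named after its values were seen, was the 1 gene called higher (0.21, adjusted p = 0.0358). Leaving out 1 pair left between 11 and 14 genes called. Without the block, edgeR called 2 of the 16 genes and DESeq2 called 9. Those fits called 0.875% and 5.72% of all genes.

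Of 13 genes of G2 and mitosis that DREAM represses in resting cells, 9 were called lower and 0 higher. Their median log2 fold change was -0.27. The share called was 69.2%, against 25.4% of all genes, of which 12.7% were called lower. DESeq2 with the block also called 0 of the 13 higher, and edgeR gave 0 of them a rise at an unadjusted p under 0.05. KIF20A, a kinesin of cytokinesis, fell by 0.65, the kinase AURKA by 0.43, the topoisomerase TOP2A by 0.40 and the mitotic kinase CDK1 by 0.37 on the log2 scale (edgeR adjusted p between 5.05e-06 and 0.000832). Without pair 1, 5 of the 13 were called. Without the block, edgeR called 0 of the 13 and DESeq2 called 6. For both lists, the genes were chosen with earlier results of these libraries known, so their direction is not independent evidence.

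**Figure D4:**
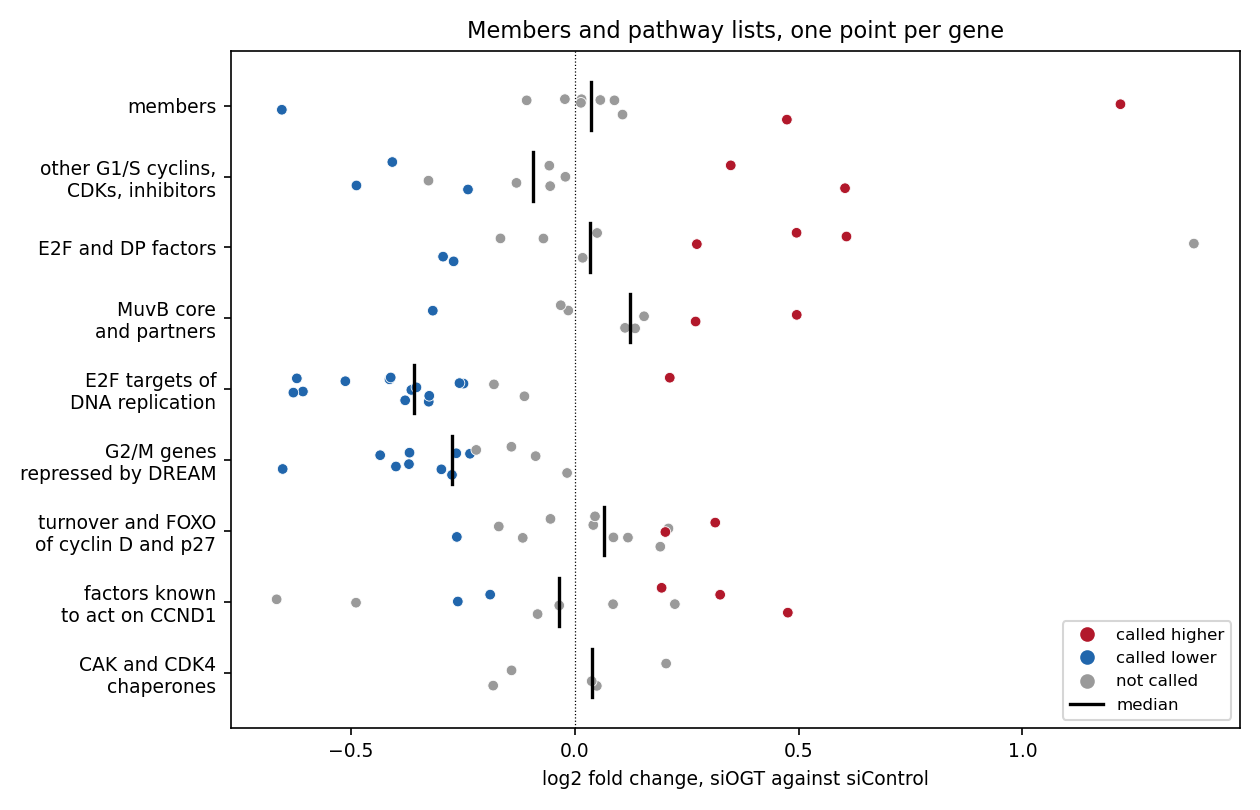
Log2 fold change of siOGT against siControl for the members and the genes of 8 pathway lists (1 dot per gene, red called higher, blue called lower, grey not called), with the median of each list as a black line; vertical scatter within a list only separates the dots. The medians of the E2F targets of DNA replication (-0.36) and of the G2/M genes (-0.27) lie left of 0, and that of the members at 0.036; the grey E2F dot at 1.38 is E2F5, at most 0.136 CPM on average.

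Of 12 genes that control the turnover or FOXO-dependent transcription of D-type cyclins and CDKN1B, 3 were called, a share of 25.0% that is close to the 25.4% of all genes. FOXO4 (0.31, edgeR adjusted p = 0.0196) and FOXO3 (0.20, adjusted p = 0.0414), which can switch on CDKN1B, were called higher. GSK3B, a kinase that marks cyclin D1 for export and degradation, was called lower (-0.26, adjusted p = 0.00571). The calls depended on the libraries, with 0 of the 12 genes called without pair 1 and 1 without pair 2.

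Of 11 transcription factors known to act on CCND1, 3 were called higher and 2 lower (45.5% called, against 25.4% of all genes). FOSL1 (0.48, edgeR adjusted p = 0.000285), an AP-1 protein, ETS2 (0.32, adjusted p = 0.0101) and the NF-kappaB subunit RELA (0.19, adjusted p = 0.0341) rose. CTNNB1, the beta-catenin gene, fell by 0.26 (adjusted p = 0.00598), and STAT3, named after its values were seen, fell by 0.19 (adjusted p = 0.0349) on the log2 scale. Without pair 1, 1 of the 11 was called, and 3 without pair 2.

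Of 5 genes of the CDK-activating kinase and of the chaperones that fold CDK4, edgeR with the block called 0, against 25.4% of all genes. It gave 3 of the 5 an unadjusted p under 0.05. DESeq2 with the block called 16.3% of all genes and 1 of these 5. Their log2 fold changes lay between -0.18 and 0.20. Over all 8 lists, 13 of 85 genes were called higher and 31 lower, with a median log2 fold change of -0.12. The share called was 51.8%, against 25.4% of all genes. Of the 31 called lower, 13 were E2F target genes of DNA replication and 9 were G2/M genes. Without the block 2 of these 85 genes were called, and 24 without pair 1.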

How the data were processed

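Paired-end reads of oligo-dT enriched RNA were aligned to hg38 by the authors with Bowtie2 2.3.5.1 and counted per gene, by strand, with RSEM 1.3.1 (versions per the study's methods and the submitters' processing notes). The deposited values are expected counts, in which a read matching several genes is divided between them, so values of near-identical genes are uncertain. A table of the authors' own comparison, made with DESeq2 1.36.0 and holding a mean signal, log2 fold changes and adjusted p-values, was not used. The annotation behind the counts is named as GENCODE, without the gene models being known exactly.

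Expected counts were rounded to whole numbers. The 2054 genes whose counts summed to less than 10 over the libraries (0.00447% of the counts) were left out. For the other 14853 genes, libraries were scaled by TMM (factors 0.979 to 1.02), and a two-sided quasi-likelihood F test (edgeR 4.0.16, R 4.3.3) was run in which the pair was a block, with Benjamini-Hochberg adjustment over all genes. DESeq2 1.42.0 was an alternative. Errors are SD, and SE and 95% intervals were derived from the F statistic. A prior count of 2 was added for log2 ratios of pairs. The test was run on simulated counts with known changes, drawn with pair effects and the same dispersion for every gene. Such counts meet the assumptions of the test, so the run could not show how it behaves where they fail. The study's methods pair libraries of 1 replicate, and deviations from the group means over 12373 genes correlated by 0.69, 0.53 and 0.33 between same-numbered libraries.

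TPM was computed with transcript lengths of GENCODE 44 (hg38), found for 16364 of 16907 symbols, and coordinates are from the same annotation. Upstream sequences are from RefSeq. Members and gene lists were chosen with earlier results of these data known. Named genes were the members, OGT, up to 4 called genes per list by size of change, the partners CDK2, CCNE1, CCNE2, CDKN1A, E2F1 and E2F4, and the 3 genes most correlated with each of CCND3 and CDKN2C. CDKN2A, TFDP2, CDT1, STAT3, E2F5 and the neighbouring genes are outside this rule and were named after their values were seen.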

Additional observations from a re-analysis of the deposited data

How the results depend on the processing

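Of 110 comparisons of a member's log2 fold change with an alternative, 102 kept the direction and the side of the threshold, 2 lost the call and 6 changed sign, all 6 in members that were not called. The 2 lost calls were those of CDK6 without the replicate block. Sign changes were those of CCND1 (0.000328 with library totals alone, and -0.12 to 0.123 when 1 pair was left out), CCND2 (-0.0901 to 0.499), CDK4 (-0.0411 to 0.0404) and RB1 (-0.0181 to 0.0316), the last 3 when 1 pair was left out. The causes were not tested.

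Without the replicate block, that is, without the pairing, edgeR called 130 genes (71 higher, 59 lower) instead of 3766, and 1 member instead of 2 was called higher. The lists then gave 0 calls each, except for 2 E2F targets, and 2 in all. When DESeq2 was run with no block, 849 genes were called (388 higher, 461 lower) and 1 member higher, with 2 other G1/S genes, 2 E2F and DP factors, 9 E2F targets, 0 turnover genes, 1 factor acting on CCND1 and 22 list genes in all. DESeq2 with the block called 2415 genes (1117 higher), with 3 other G1/S genes, 1 turnover gene and 1 gene of the CDK-activating kinase list. The last list also had 1 call with library totals alone and 2 with no filter. At an adjusted p of at most 0.01, 2083 genes were called (1004 higher, 1079 lower), with 1 turnover gene and 2 factors acting on CCND1.

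Leaving out 1 pair gave 1803 to 3439 called genes (858 to 1652 higher, 945 to 1787 lower), 24 to 46 list genes, 3 to 4 other G1/S genes, 3 to 5 E2F and DP factors, 1 to 5 MuvB genes, 5 to 9 G2/M genes, 0 to 4 turnover genes, 1 to 6 factors acting on CCND1 and 0 to 1 genes of the CDK-activating kinase list. The median over all genes moved to at most 0.029, with library totals alone. Levels per length moved with the longest transcript in siControl, to 0.329 (CCND2), 371 (CDK4), 27.9 (CDK6), 55.9 (CDKN1B), 123 (RB1) and 59.3 TPM (RBL2).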

Other observations

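The genes whose log2 CPM followed that of CCND3 most closely over the 6 libraries, among 9620 genes that averaged 10 CPM or more, were TXLNG (Pearson r 0.995, from 40.6 to 56.8 CPM), EIF3J (0.994, from 60.6 to 81.1 CPM) and TNRC6A (0.993, from 77.8 to 122 CPM), all called higher. For CDKN2C they were APAF1 (0.999, from 30.2 to 26.1 CPM), CD82 (0.997, from 85.99 to 53.3 CPM) and NPEPL1 (0.994, from 26.8 to 17.9 CPM), all called lower. These coefficients share the libraries and mostly follow the group and the pairs, and they describe 6 points.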
